A study of Rattus norvegicus with 6 samples.

Results

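NF-kB is a family of dimeric transcription factors, and the 10 genes described here encode 4 of its subunits, 3 of its inhibitors and 3 of the genes it is known to switch on. They are Rela, Relb, Nfkb1 and Nfkb2, then Nfkbia, Nfkbib and Nfkbie, then Tnfaip3, Birc3 and Traf1. They were chosen by gene symbol, and all 10 were found among the 18930 genes of the count table. RNA was sequenced from NRK-52E cells, an established line of rat kidney epithelial cells of wild-type genotype. The Control group was 3 samples of vehicle-treated cells, and the STZ group was 3 samples kept for 24 h in 10 mM of streptozotocin (STZ), a glucose analog that alkylates DNA. The study asked which signaling responds to STZ in tubular epithelial cells, and the comparison here asks how the NF-kB genes differed between the groups. NRK-52E is a single cell line in culture, and the text does not say whether the samples of a group were separate cultures, so the p-values measure the spread between these samples, which may be technical.

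In resting cells the dimers are held in the cytoplasm by IkB proteins. In the canonical route the IKK kinase complex marks these inhibitors for destruction, and dimers of RelA with the product of Nfkb1 enter the nucleus. In the non-canonical route the kinase NIK, encoded by Map3k14, leads to processing of the Nfkb2 product, which then acts with RelB. Several NF-kB target genes encode its own subunits and inhibitors, and Nfkbia and Tnfaip3 are known for rising early and closing the response. DNA damage is one known trigger of the pathway. All of this is background, and the data below are RNA counts only, so they do not show where the proteins were or whether they were active.

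Matches to the motif that NF-kB is known to bind are shown first, because the genes that hold them did not change in one direction. Of the 10 genes, 8 had a promoter window in the RefSeq tables of the GRCr8 build, running from 250 bases before to 50 bases after the start site. Relb and Birc3 had none. This 10-base motif, the kB consensus, was searched by its letters on both strands. It was found in 5 of the 8 windows, those of Nfkb1, Nfkb2, Nfkbia, Nfkbie and Tnfaip3, and in 7.51% of all 33469 windows. Each line below gives 30 bases, 5′ to 3′ on the strand of the gene, with the motif on either strand in capitals.
Nfkb2, GRCr8 chr1:255108344-255108373, plus strand: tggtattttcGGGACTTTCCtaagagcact
Nfkb1, GRCr8 chr2:226805440-226805469, minus strand: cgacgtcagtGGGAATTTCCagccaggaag
Nfkbia, GRCr8 chr6:78597084-78597113, minus strand: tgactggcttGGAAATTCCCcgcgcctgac
Nfkbie, GRCr8 chr9:22948017-22948046, minus strand: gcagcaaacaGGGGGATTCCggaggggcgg
Tnfaip3, GRCr8 chr1:15544021-15544050, minus strand: gactGGAAAGTCCCtcGGAAATCCCCctgt

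The Nfkb2 motif, GGGACTTTCC, began 20 bases before the start site, and the same letters were found in 0.111% of all windows. They also stand in the Tnfaip3 window, on the opposite strand and 67 bases before the start, next to another match that began 55 bases before it. The letters GGGAATTTCC occurred in the windows of Nfkb1 and, on the opposite strand, Nfkbia, and in 0.0747% of all windows. In Nfkb1 they began just past the start site, and in Nfkbia 31 bases before it. Tnfaip3 held a further match 170 bases before its start, where both strands match over the same bases. The windows of Rela, Nfkbib and Traf1 held no match. Among genes tested below, 28.0% of the 899 with the consensus in their window were higher and 26.5% lower in STZ, against 26.9% and 25.9% of the 7827 whose window lacked it. These shares are a description of letters in a short window and were not tested.

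Of the 10 genes, 9 had enough reads to be tested, and 2 of these, Nfkb2 and Birc3, were higher and 3, Nfkb1, Rela and Tnfaip3, were lower in STZ-treated cells. A gene was called when its p, from edgeR's quasi-likelihood test and adjusted by Benjamini-Hochberg over the 11870 genes tested, was under 0.05. The same call was made for 50.9% of all genes tested, 25.9% higher and 25.1% lower, so 5 of 9 is close to the share among genes in general. None of the 9 passed the study's further threshold of an absolute log2 fold change over 1, which 3.37% of all genes tested passed together with the adjusted p. The median log2 fold change of the 9 was -0.01, beside -0.01 for all genes tested, and their range was -0.25 to 0.66. Levels are given as CPM, that is counts divided by the scaled library size and put on a common scale of reads per 1000000, and they are compared between samples and not between genes, since gene lengths were not used. In bulk RNA, fewer cells expressing a gene and less RNA per cell cannot be told apart.

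**Figure D1:**
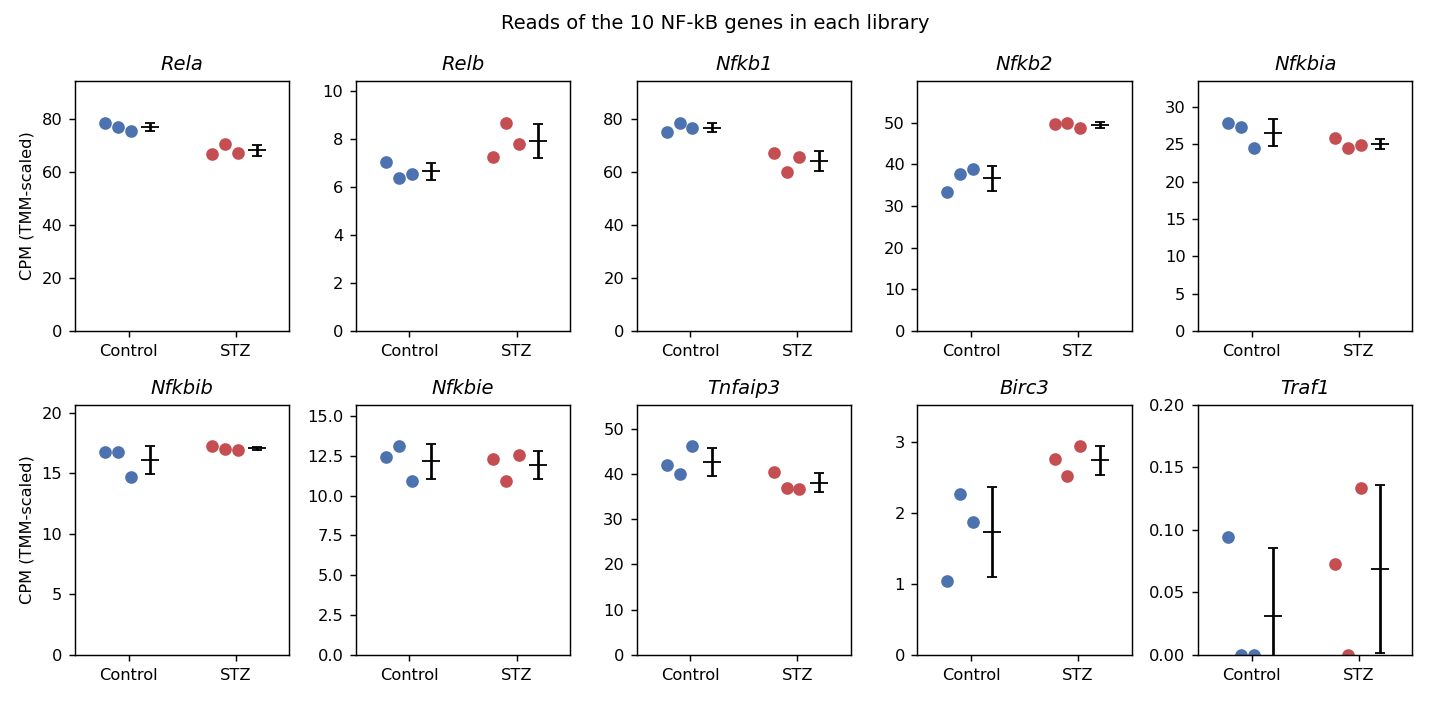
Level of each of the 10 genes in every library, in CPM after TMM scaling (vertical axis, from 0, a separate scale for each gene), for Control (blue) and STZ (red), with the mean and SD of 3 samples in black. Nfkb2 lay above Control in all STZ samples, Rela and Nfkb1 lay below it, and Traf1 rested on at most 2 reads in any library.

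Nfkb2, which encodes the precursor processed in the non-canonical route, was the member with the smallest p. Its level was 33.3, 37.7 and 38.9 CPM in Control replicates 1, 2 and 3 and 49.7, 49.96 and 48.6 CPM in the corresponding STZ replicates, and the groups did not overlap. The means were 36.6 ± 2.97 CPM in Control and 49.4 ± 0.688 CPM in STZ (SD, n = 3 each). The log2 fold change was 0.43 (95% interval 0.30 to 0.56, standard error 0.06, adjusted p = 3.72e-07), or 1.34-fold. This was a moderate change for these libraries, since 19.1% of all genes tested had a larger absolute log2 fold change. The 250 bases before the Nfkb2 start site, with the kB motif near their end in capitals, are printed because this gene had the smallest p. Whether the motif has a part in the rise was not tested.
Nfkb2, GRCr8 chr1:255108124-255108373, plus strand: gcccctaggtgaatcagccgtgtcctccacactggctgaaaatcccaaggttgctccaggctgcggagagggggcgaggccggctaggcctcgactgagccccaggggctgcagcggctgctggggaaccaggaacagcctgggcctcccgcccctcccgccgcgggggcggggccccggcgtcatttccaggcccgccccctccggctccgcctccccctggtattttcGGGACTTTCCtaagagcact

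Nfkb1, which encodes the precursor of the canonical DNA-binding partner, moved the other way. It had 75.3, 78.7 and 76.6 CPM in Control and 67.1, 60.0 and 65.7 CPM in STZ, so every STZ sample lay below every Control sample. The difference was -0.25 on the log2 scale (95% interval -0.36 to -0.15, standard error 0.05, adjusted p = 8.83e-05).

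Rela, which encodes the main activating subunit of the canonical dimer, was also lower. Its level was 78.7, 77.1 and 75.4 CPM in Control and 67.0, 70.8 and 67.1 CPM in STZ, again without overlap. The difference was -0.18 on the log2 scale (95% interval -0.28 to -0.07, adjusted p = 0.00372), and 53.5% of all genes tested had a larger absolute change. The falls of Nfkb1 and Rela were therefore small in size, though larger than the spread between replicates.

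Relb, which encodes the partner of the processed Nfkb2 product, was not called. It had 7.07, 6.37 and 6.55 CPM in Control and 7.27, 8.69 and 7.81 CPM in STZ, and the groups did not overlap. With 70 to 117 reads per library, its log2 fold change of 0.24 had a 95% interval from -0.04 to 0.53 (adjusted p = 0.145), an interval that takes in both 0 and the change of Nfkb2. Rel, the remaining subunit of the family and not one of the 10 genes, had 13.1 to 14.8 CPM in Control and 11.2 to 12.9 CPM in STZ. Its log2 fold change was -0.21 (adjusted p = 0.0911) and it was not called.

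**Figure D2:**
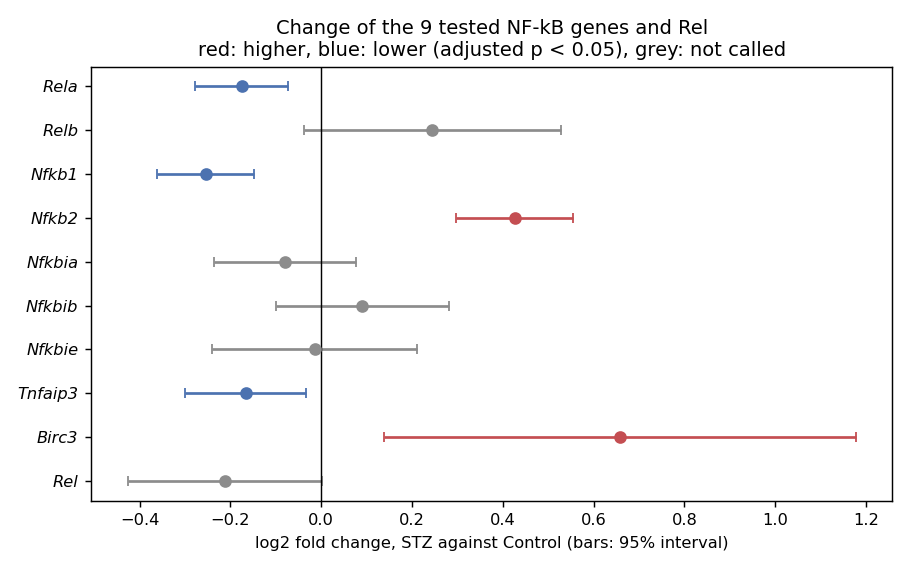
Log2 fold change, STZ against Control, of the 9 genes tested and of Rel (horizontal axis), with 95% intervals as bars; red marks genes called higher, blue genes called lower and grey genes not called. Nfkb2 at 0.43 and Birc3 at 0.66 lie to the right of 0, Nfkb1 at -0.25, Rela at -0.18 and Tnfaip3 at -0.17 to the left, and the interval of Birc3 is the widest.

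Since Nfkb2 and Nfkb1 moved in opposite directions, their reads were also set against each other within each library, where library scaling cancels. Nfkb2 had 0.442, 0.480 and 0.508 reads per read of Nfkb1 in the Control samples, and 0.740, 0.832 and 0.740 in the STZ samples. The log2 ratio rose from -1.07 ± 0.10 to -0.38 ± 0.10 (SD, n = 3 each), a difference of 0.69, and the groups did not overlap. The ratio of Relb to Rela was 0.0826 to 0.0898 in Control and 0.109 to 0.123 in STZ, a difference of 0.42 on the log2 scale, also without overlap. The ratio of Nfkbia to Rela, 0.325 to 0.355 in Control and 0.346 to 0.385 in STZ, overlapped between the groups, as did that of Tnfaip3 to Rela. With 3 samples against 3, the smallest p that an exact two-sided permutation test can give is 0.1, and Nfkb2 to Nfkb1 and Relb to Rela both reached it (0.2 adjusted over the 4 ratios), while Nfkbia to Rela gave an exact p of 0.3 and Tnfaip3 to Rela one of 0.9. The ratios were chosen after the values were seen.

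**Figure D3:**
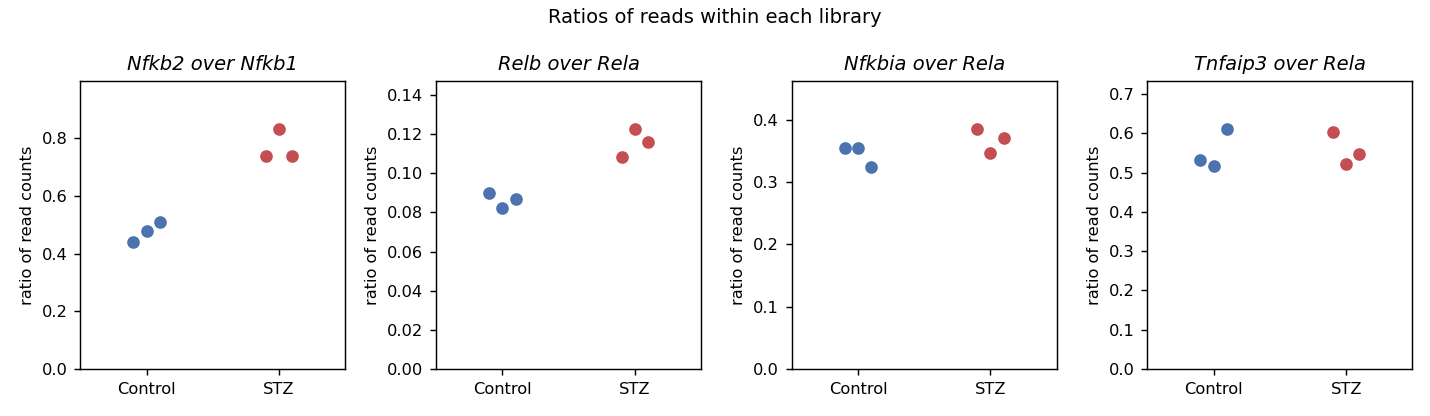
Reads of one gene per read of another in each library (vertical axis, from 0) for Control (blue) and STZ (red), 3 samples each. Nfkb2 over Nfkb1 and Relb over Rela lie higher in every STZ sample than in any Control sample, while Nfkbia over Rela and Tnfaip3 over Rela overlap.

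The 3 IkB genes were at similar levels in both groups, and none was called. Nfkbia encodes IkB alpha, the inhibitor that NF-kB itself induces most rapidly. It had 27.9, 27.4 and 24.5 CPM in Control and 25.8, 24.5 and 24.9 CPM in STZ, with overlap. The log2 fold change was -0.08 with a 95% interval of -0.24 to 0.08 (adjusted p = 0.410), an interval that leaves out a rise of the size of Nfkb2.

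Nfkbib, which encodes IkB beta, had 16.8, 16.7 and 14.7 CPM in Control and 17.2, 17.0 and 16.9 CPM in STZ. The STZ samples lay just above the Control samples, but the log2 fold change of 0.09 (95% interval -0.10 to 0.28, adjusted p = 0.441) did not pass the test. In the GRCr8 annotation the span of Nfkbib overlaps a protein-coding gene, LOC103689966. The overlap may not hold in Rnor6, the build used for counting. Whether the counting used strand is not given, so the pair's reads may be mixed or left uncounted.

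Nfkbie, which encodes IkB epsilon, had 12.4, 13.1 and 10.9 CPM in Control and 12.3, 10.9 and 12.5 CPM in STZ. Its log2 fold change was -0.01 (95% interval -0.24 to 0.21, adjusted p = 0.926). The spread among its 3 samples of either group was larger than the difference between the group means.

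Of the feedback and adaptor genes, Tnfaip3 encodes A20, an enzyme that edits ubiquitin chains and shuts off signaling upstream of IKK. It had 41.9, 39.9 and 46.1 CPM in Control and 40.5, 37.0 and 36.8 CPM in STZ, and the groups overlapped. The difference was -0.17 on the log2 scale (95% interval -0.30 to -0.03, standard error 0.07, adjusted p = 0.0336). Control replicate 3 was the highest sample, and without it the log2 fold change was -0.10 and the call was lost (adjusted p = 0.247). It was also lost without STZ replicate 2 (adjusted p = 0.102) and without STZ replicate 3 (adjusted p = 0.142).

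Birc3 encodes cIAP2, a ubiquitin ligase that is a target of NF-kB and a brake on NIK. It had few reads, 11, 25 and 24 in Control and 38, 29 and 44 in STZ, which is 1.04, 2.27 and 1.87 CPM against 2.76, 2.52 and 2.94 CPM. Its log2 fold change was the largest of the 9, 0.66, with the widest 95% interval, 0.14 to 1.18 (adjusted p = 0.0302). Control replicate 1 was the lowest library, and without it the log2 fold change was 0.42 and the call was lost (adjusted p = 0.206). Leaving out STZ replicate 1 (adjusted p = 0.0642) or STZ replicate 3 (adjusted p = 0.102) lost the call as well. The GRCr8 annotation places a pseudogene, Ramac-ps1, within the span of Birc3. Its paralog Birc2, chosen for naming after its values were seen, had a log2 fold change of 0.24 (adjusted p = 9.17e-04).

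Traf1, an adaptor induced by NF-kB in many cell types, was at the limit of detection. It had 1, 0 and 0 reads in Control and 1, 0 and 2 reads in STZ, and was not tested. A count of 0 allows up to 3 reads, or 0.200 to 0.283 CPM in these libraries (counting error only), so no fold change is given.

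Among the 9 genes, the groups did not overlap in 6, namely Nfkb2, Relb, Nfkbib and Birc3 on the higher side and Rela and Nfkb1 on the lower side. The groups did not overlap in 56.3% of all genes tested, 28.6% higher and 27.7% lower. By Pearson's r over the log2 CPM of the 6 libraries, the 3 genes with a pattern most like that of Nfkb2 were Hps5 (r = 0.999), Camk2d (r = 0.998) and Bcl2l15 (r = 0.998). The 6 points share their libraries and fall into 2 groups, and 29 genes reached an r over 0.99. Their log2 fold changes were 0.85 for Hps5, 0.37 for Camk2d and 1.58 for Bcl2l15.

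The pathway around the 10 genes was described with 8 lists holding 91 further genes, of which 80 were in the table under their symbols and 64 were tested. Of these 64, 24 were higher and 5 lower at an adjusted p under 0.05, and their median log2 fold change was 0.11, where 50.9% of all genes tested were called, 25.9% higher and 25.1% lower. The 24 include Ccl2 and the 5 include Ltb, and each passed the filter on low counts only through the group where it was high. The lists were chosen with earlier results of these data known and differed among themselves. The genes of a list are not replicates of each other. The libraries held few reads of leukocyte or endothelial markers. The leukocyte markers found (5 of 7) summed to between 1 and 2.36 CPM in Control and to 2.09 to 2.40 CPM in STZ. Cd68 held 50 reads in Control and 77 in STZ, and Ptprc 1 read in all. The endothelial markers (5 of 5) summed to 2.64 to 4.15 CPM in Control and 1.65 to 2.40 CPM in STZ, with Pecam1 at 3 reads in all. Vwf had 89 reads in Control and 47 in STZ, while Kdr went the other way, with 3 in Control and 22 in STZ. The fibroblast markers found (6 of 7) summed to 99.7 to 111 CPM in Control and 56.2 to 66.8 CPM in STZ, mostly Col3a1, Col1a1 and Pdgfrb, with Thy1 at 3 reads in Control and 2 in STZ, and their part in the results was not tested. Of the 8 epithelial markers 4 were found, and the epithelial label rested on Krt8 and Tjp1. Krt18 had 2 reads in Control and 5 in STZ, and whether its reads were lost in counting is not known. Cdh1 had 2.58 CPM in Control and 1.64 CPM in STZ. Of the 7 proximal tubule markers only Aqp1 was tested, with 13.1 CPM in Control and 5.43 CPM in STZ, and Lrp2, Slc34a1, Slc5a2, Slc2a2 and Havcr1 were at or near 0.

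Of 10 ligands of the pathway, 6 were in the table and 2 were tested. Tnfsf12, which encodes TWEAK, had a log2 fold change of 0.52 (adjusted p = 1.45e-06), with 17.3 to 19.0 CPM in Control and 24.2 to 28.2 CPM in STZ. Its receptor Tnfrsf12a (Fn14) rose from 252 ± 4.16 CPM to 355 ± 6.12 CPM (SD, n = 3 each), a log2 fold change of 0.49 (adjusted p = 8.13e-15). Ltb, a chain of lymphotoxin, had 9 to 15 reads per library in Control and 3 to 10 in STZ, and the ratio of its scaled summed reads was 0.453 (95% exact interval 0.241 to 0.825, counting error only). Ltb passed the filter on low counts only through Control, the group where it was high, so no p is given for it. The reads of Il1b, Lta and Il18 were at most 2 in any library, and Tnf was not in the count table under its symbol. Of 11 receptors, 7 were tested, and 4 were higher and none lower, at a median log2 fold change of 0.14, beside 50.9% called and 25.9% higher over all genes tested. One of the 4, Ltbr, named after its values were seen, had a log2 fold change of 0.10 (adjusted p = 0.0278) and lost its call without Control replicate 1 (adjusted p = 0.124), STZ replicate 2 (0.0887) or STZ replicate 3 (0.0777).

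Of 9 IKK-related kinases tested, 1 was called, Map3k14, beside 50.9% of all genes tested. It encodes NIK, and it had 30.6 to 36.6 CPM in Control and 38.4 to 44.1 CPM in STZ, a log2 fold change of 0.30 (adjusted p = 4.91e-04). The subunits of the IKK complex, Chuk, Ikbkb and Ikbkg, had log2 fold changes of 0.09, 0.12 and 0.16 and were not called. Of 15 adaptors and ubiquitin ligases, 3 were higher and 1 was lower, at a median of -0.03, beside 25.9% and 25.1% of all genes tested. One of the 3, Traf3, named after its values were seen, was close to the threshold (log2 fold change 0.15, adjusted p = 0.0462) and lost its call without any one of Control replicates 2 and 3 and STZ replicates 2 and 3 (adjusted p of 0.114, 0.147, 0.173 and 0.0852). Rbck1, which encodes a component of the linear ubiquitin ligase, had the smallest p among the higher ones, with a log2 fold change of 0.25 (adjusted p = 1.09e-05). Xiap, which encodes an inhibitor of caspases, was the one lower, at -0.31 (adjusted p = 1.78e-04). Of 10 further inhibitors tested, 4 were higher and none was lower, at a median of 0.21, beside 25.9% and 25.1% of all genes tested. Pdlim2, which encodes a nuclear ubiquitin ligase for RelA, had the smallest p, with 5.69 to 8.46 CPM in Control and 12.3 to 13.6 CPM in STZ, a log2 fold change of 0.78 (adjusted p = 3.12e-06). The others were Zc3h12a at 0.67, Cyld at 0.38 and Tax1bp1 at 0.23, which were named after their values were seen.

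**Figure D4:**
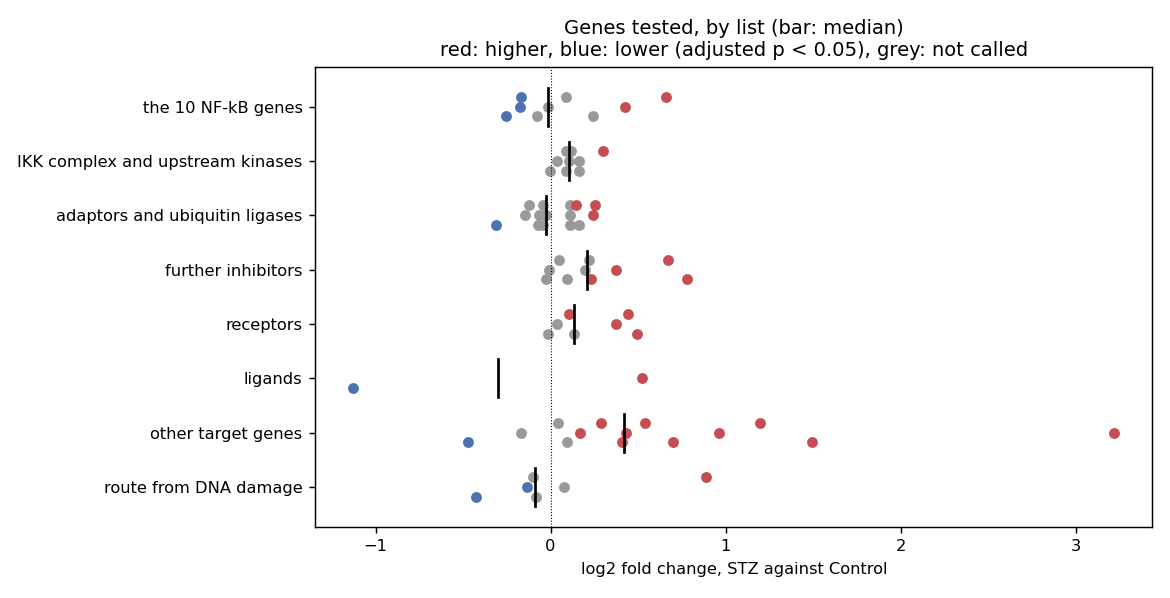
Log2 fold change, STZ against Control (horizontal axis), of each gene tested in the 10 NF-kB genes and in 7 pathway lists (rows), 1 point per gene and a bar at the median; red marks genes called higher, blue genes called lower and grey genes not called. The medians lie between -0.30, that of the ligands with only 2 genes tested, and 0.42. In the row of other target genes stand 10 of the red points. Ltb among the ligands and Ccl2 among the 10 passed the filter on low counts only through their high group.

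Of 25 other known target genes of NF-kB, 14 were tested, 10 of them higher and 1 lower at an adjusted p under 0.05, with a median log2 fold change of 0.42, where 25.9% of all genes tested were higher and 25.1% lower. Of the 9 in the table that were not tested, all had too few reads, and a gene with few reads can pass the filter through its high group, as Ccl2 did, so the count over the 14 is not a count over all targets. Many of these genes are also targets of other factors. The list was chosen with earlier results of these data known, and its share of higher genes was not tested.

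Icam1, which encodes an adhesion molecule for leukocytes, had the smallest p. It had 89.2, 88.0 and 91.3 CPM in Control and 173, 174 and 177 CPM in STZ, a difference of 0.96 on the log2 scale (adjusted p = 4.33e-22). Ptgs2, which encodes the inducible cyclooxygenase, had 6.03, 7.18 and 8.34 CPM in Control and 20.4, 20.4 and 20.6 CPM in STZ, a log2 fold change of 1.496 (adjusted p = 5.06e-15). Both genes lay higher in 3 of 3 STZ samples than in any Control sample, as did 28.6% of all genes tested.

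The chemokine genes did not move together. Cxcl10 had 40 to 48 reads per library in Control and 83 to 148 in STZ, a log2 fold change of 1.196 (adjusted p = 3.33e-08). Ccl2 had 1 to 3 reads in Control and 15 to 31 in STZ, and the ratio of its scaled summed reads was 9.84 (95% exact interval 4.30 to 27.7, counting error only). Cxcl1 was the one target that was lower, with 10.1 to 15.8 CPM in Control and 9.09 to 10.1 CPM in STZ, a log2 fold change of -0.47 (adjusted p = 0.00174). Of the genes known to link DNA damage to IKK, 1 of 6 was higher and 2 were lower, beside 25.9% and 25.1% of all genes tested. Pidd1, which encodes a scaffold for this route and is itself a target of p53, had a log2 fold change of 0.89 (adjusted p = 9.38e-13). Parp1, which encodes the DNA break sensor, had one of -0.42 (adjusted p = 2.75e-11), and Atm, the damage kinase named after its values were seen, one of -0.14 (adjusted p = 0.0253). The call of Atm was lost without any one of Control replicates 2 and 3 and STZ replicates 2 and 3 (adjusted p of 0.106, 0.067, 0.126 and 0.0822).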

How the data were processed

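Stranded mRNA libraries were sequenced by the authors as single-end reads and aligned to Rnor6, a build of the rat genome, by STAR 2.7.10a, and reads with a unique position were assigned to genes by featureCounts. The deposited values are these raw counts, with no normalization. The annotation release and the strand setting are not given in the sources used here. Total counts were between 10430924 and 15191349 per library, from 11658253 to 15191349 in STZ and from 10430924 to 12737131 in Control, ranges that overlap. This depth sets the precision for genes with few reads.

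The whole table was analysed with edgeR 4.0.16 (R 4.3.3), using TMM scaling (factors 0.988 to 1.02), the default filterByExpr filter on low counts, the quasi-likelihood test and Benjamini-Hochberg adjustment. Standard errors were derived from the F statistic, and 95% intervals from the degrees of freedom of the test. The steps were tested on simulated counts. Pairs of libraries within a group were further apart than counting noise (chi-square per degree of freedom at least 1.85). The 10 members and the gene lists were chosen with earlier results of these data known. Called genes named from a pathway list are those with the smallest p in each direction and those past both thresholds, and other called ones are marked. Genes without a call, such as the IKK subunits, were named outside this rule. Alternatives were other scalings, filters, tests (DESeq2 1.42.0, limma 3.58.1 and edgeR's exact test) and thresholds, thinning to the smallest library, a block for replicate number, and leaving out each sample in turn. Promoter windows came from RefSeq (GRCr8), a later build than the one used for counting.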

Additional observations from a re-analysis of the deposited data

How the results depend on the processing

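The calls of Nfkb2, Nfkb1 and Rela were kept under every alternative except the study's fold-change threshold, and those of Birc3 and Tnfaip3 were not. Over the 18 alternatives, the log2 fold change was 0.36 to 0.47 for Nfkb2, -0.29 to -0.21 for Nfkb1 and -0.21 to -0.16 for Rela. With DESeq2 or an adjusted p under 0.01, 1 of the 10 genes was higher in place of 2, and 3 pathway genes were lower in place of 5. Calls over all genes tested fell too, from 3070 higher and 2976 lower. They were 2598 and 2451 with DESeq2, and 2468 and 2361 at an adjusted p under 0.01. With library size as the only scaling, 22 pathway genes were higher in place of 24, and 7 lower in place of 5. DESeq2 gave an adjusted p of 0.107 for Birc3 and 0.107 for Tnfaip3, and thinning gave 0.0797 for Tnfaip3. With the fold-change threshold added, 0 of the 10 genes were higher and 0 lower, and 3 pathway genes were higher and 1 lower. The 3 include Ccl2 and the 1 is Ltb, and each passed the filter on low counts only through its high group. Of all genes tested, 268 were higher and 132 lower at that threshold. With one sample left out, 1 to 2 of the 10 genes were higher and 2 to 3 lower, and 3 to 5 pathway genes were lower. In those fits 2771 to 2878 of all genes tested were higher and 2629 to 2801 lower. Nfkbie, with no call, ranged from -0.093 to 0.042 with one sample left out and changed sign without Control replicate 1 (0.0036), Control replicate 2 (0.042) or STZ replicate 2 (0.039). Without a filter, Traf1 had an adjusted p of 0.654. No scaling moved the median of all genes tested by more than 0.04 on the log2 scale.

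Samples with the same replicate number did not deviate together (correlations of 0.0453, -0.0332 and 0.0879), and not every sample correlated best with its own number. With the replicate number as a block, 2 of the 10 genes were higher and 3 lower, as without it, and of all genes tested 3139 were higher and 3060 lower. Few reads limit Birc3, Relb and Traf1, and 3 samples a group limit every result.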
